A study of Homo sapiens with 2 samples.

Results

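The desmosomal cadherin cluster of chromosome 18 was examined in the list of chromatin loops from KYSE180, an established cell line of esophageal squamous cell carcinoma (ESCC). Loops were taken as members where at least 1 of their bins of 2 kb starts in chr18:28500000-29200000 (hg19, the build that the labels give), and 22 of the 31950 listed loops met this rule. The genes followed were DSC3, DSC2, DSG1, DSG3 and DSG2. The loops come from HiChIP for H3K27ac, a histone mark of active promoters and enhancers, in which ligated read pairs report contacts between marked regions. In the study's methods the loop calls are called p63-associated, after the squamous transcription factor p63, without saying how p63 entered the calls. The list may therefore lack contacts away from p63, and a region without a listed loop may still have H3K27ac contacts. All cells had received a non-targeting siRNA, and the 2 libraries of this 1 group, labelled as replicates, share 1 list. No other condition was compared, so a spread between replicates cannot be given and no test across samples could be made. How deeply each library was sequenced cannot be read from the list, and the intervals given (95%, exact Poisson for counts and Wilson for shares) cover counting error only. The list holds no expression values, so nothing in it says how strongly the genes were transcribed.

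Desmosomes are junctions that tie the keratin filaments of neighboring epithelial cells together. Their adhesive parts are cadherins of the desmoglein (DSG) and desmocollin (DSC) families, which meet in the space between the cells and bind plakoglobin and plakophilins inside them, and these link to desmoplakin and the filaments. In stratified squamous epithelium DSG3 and DSC3 are typical of the lower layers and DSG1 of the upper, differentiated layers, while DSG2 and DSC2 are widespread and are also found in simple epithelia and in heart muscle. DSG1 and DSG3 are also the targets of autoantibodies in pemphigus. The genes lie side by side, and in the RefSeq order (GRCh38) they run DSC3, DSC2, DSC1, DSG1, DSG4, DSG3 and DSG2, with the DSC genes on the minus strand and the DSG genes on the plus strand. DSC1 and DSG4 were not placed, because the positions at hand for them are not on hg19.

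The promoters of DSG1 and DSG3 were poorer in G and C than those of DSC3, DSC2 and DSG2. Sequences of 300 bases around the annotated start, from 250 bases before it, were taken from RefSeq (GRCh38.p14) for all 5 genes. They are shown for DSG1, which had no loop at its 5′ end, for DSG3, which had loops and whose promoter is most like that of DSG1, and for DSC3 and DSG2, which were joined to each other. In DSG1 (chr18:31317910-31318209, plus strand) and DSG3 (chr18:31447491-31447790, plus strand) the capitals mark the longest run that both share. In DSC3 (chr18:31042693-31042992, minus strand) and DSG2 (chr18:31497927-31498226, plus strand) they mark CG dinucleotides.
DSG1: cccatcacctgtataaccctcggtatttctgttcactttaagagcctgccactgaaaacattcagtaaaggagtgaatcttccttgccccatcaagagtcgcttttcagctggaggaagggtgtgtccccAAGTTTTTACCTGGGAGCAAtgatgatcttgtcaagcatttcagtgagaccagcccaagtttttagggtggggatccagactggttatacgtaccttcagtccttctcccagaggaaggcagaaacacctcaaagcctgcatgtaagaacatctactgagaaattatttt
DSG3: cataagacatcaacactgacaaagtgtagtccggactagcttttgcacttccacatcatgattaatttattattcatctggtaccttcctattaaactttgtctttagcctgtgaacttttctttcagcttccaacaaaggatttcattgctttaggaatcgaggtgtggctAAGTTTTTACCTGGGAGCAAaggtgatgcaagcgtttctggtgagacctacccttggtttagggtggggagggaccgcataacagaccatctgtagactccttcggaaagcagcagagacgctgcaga
DSC3: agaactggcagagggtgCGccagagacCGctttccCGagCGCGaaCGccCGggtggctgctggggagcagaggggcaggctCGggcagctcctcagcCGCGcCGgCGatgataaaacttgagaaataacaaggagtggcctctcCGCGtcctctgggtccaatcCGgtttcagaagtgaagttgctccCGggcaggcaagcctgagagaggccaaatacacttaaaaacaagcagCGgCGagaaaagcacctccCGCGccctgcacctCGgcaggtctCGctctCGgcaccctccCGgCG
DSG2: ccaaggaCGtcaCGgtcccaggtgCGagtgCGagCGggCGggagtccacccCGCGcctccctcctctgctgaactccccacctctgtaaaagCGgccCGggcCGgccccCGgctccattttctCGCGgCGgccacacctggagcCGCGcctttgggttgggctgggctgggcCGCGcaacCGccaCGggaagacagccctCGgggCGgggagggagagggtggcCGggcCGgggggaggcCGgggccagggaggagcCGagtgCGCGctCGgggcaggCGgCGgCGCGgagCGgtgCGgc

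The DSG1 and DSG3 promoters shared 20 consecutive bases, which begin 120 bases before the start of DSG1 and 78 bases before that of DSG3. This run was found in 2 of the 35116 promoters of the RefSeq table, namely these. Every other pair among the members shared at most 9 bases in a row. Both sequences are poor in CG dinucleotides, with 3 in DSG1 and 6 in DSG3 at a GC content of 45.7% and 44%, against a median of 14 and 58.7% over all promoters (quartiles of GC content 47 and 68%). DSC3 had 25 CG dinucleotides and a GC content of 63.3%, and DSG2 had 36 and 76.7%. DSC2 is listed with 2 starts, whose sequences had 22 and 15 at 65.7% and 60.7%. DSG2 was thus above the upper quartile of GC content, DSC3 and both DSC2 starts were between the median and the upper quartile, and DSG1 and DSG3 were below the lower quartile. Of the last 2, DSG1 had no loop at its 5′ end and DSG3 had loops.

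Short motifs were searched on both strands of these sequences. A pair of CATG with 6 bases between them, the cores of a p63 site, was in 0 of the 6 member sequences and in 0.373% of all promoters. TGANTCA, the AP-1 motif, was in 0 of 6 and in 7.71% of all promoters, and TATAAA was in 0 of 6 and in 11.5%. Only exact matches to these letters were counted. With 6 sequences, a count of 0 at such shares does not show that p63 sites or the other motifs are absent or rarer than elsewhere. GGGNGGGG, a box of KLF and SP factors, occurred in DSG1, DSG3, DSG2 and 1 of the DSC2 starts, and in 37.7% of all promoters. It matched once in each of the DSG promoters and 3 times at that DSC2 start.

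Loops at the cadherin cluster joined the 5′ ends of 4 of the 5 genes, DSC3, DSC2, DSG3 and DSG2, to the region between the 5′ ends of DSC2 and DSG1. Loops also passed over DSG1. The 4 links to this region were counted within 5 kb of a 5′ end and were 1 loop of 1 contact each. That of DSG3 ended 2.27 kb past the 5′ end and was not within 1 kb. Within 1 kb, the same 4 genes each had at least 1 loop to any place. A window of 2 bins, the width counted within 1 kb of a 5′ end, held a loop to any place at 12.9% of the 349 positions in the cadherin window. The share was 1.86% of the positions between the outermost anchors of chromosome 18 and 3.95% of those between the outermost anchors of every chromosome. These positions are not gene starts, which carry H3K27ac more often than other DNA, and the share of all gene 5′ ends with a loop was not computed, because no annotation on hg19 was at hand. The 4 of 5 genes were therefore not compared with other genes. For links to the region within 5 kb, no such share of positions was computed either. The 22 loops had 1 contact each (Poisson interval of the number of loops 13.8 to 33.3), and 21 of them had both ends in the window. They used 27 of its 350 bins as anchors, which run from 28566001 to 29092000, a stretch of 526 kb. Of these anchors, 17 had 1 loop, 6 had 2 and 4 had 3 or more. When touching anchors were merged, the 21 loops inside the window formed 1 connected group that held all 4 of those 5′ ends. With single bins the largest group held 13 loops, so the connection depends on treating touching bins as 1 site. In the merged form, 8 of the 21 loops were the sole link between what lay on either side of them.

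**Figure D1:**
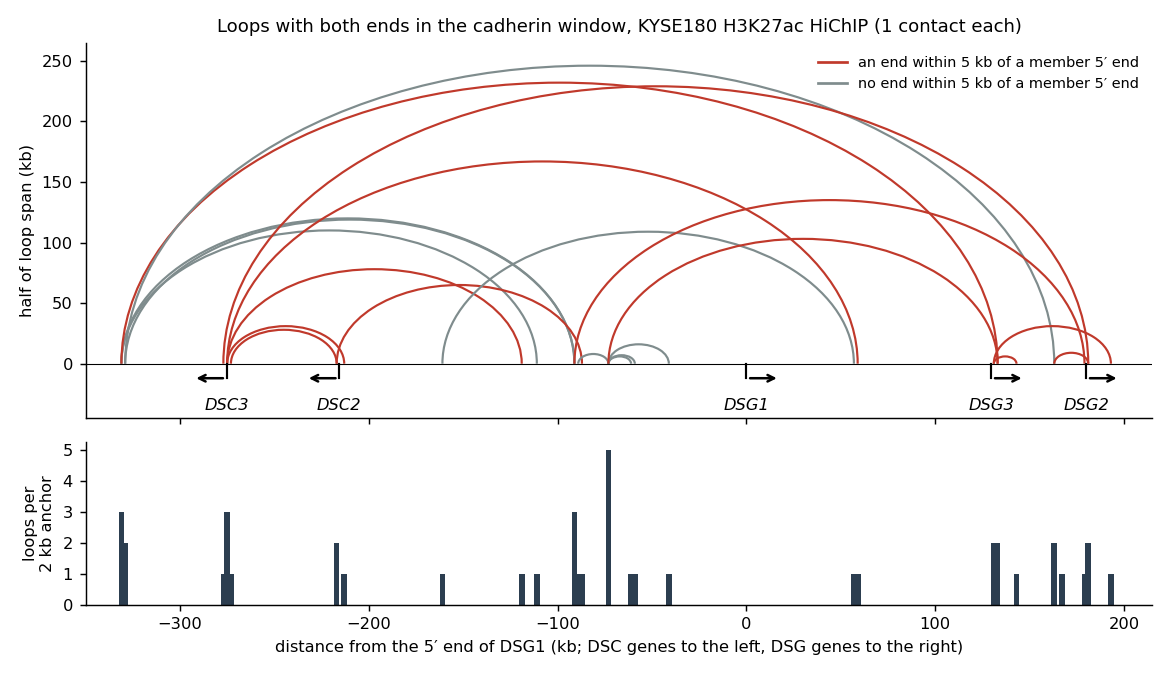
Upper panel: the 21 loops with both ends in the window as arcs, by distance from the 5′ end of DSG1 in kb, with arrows for the 5′ end and direction of each gene and each arc as tall as its radius. Lower panel: number of loops of each 2 kb anchor. Arcs reach DSC3, DSC2, DSG3 and DSG2, none ends at DSG1, and the tallest bar, with 5 loops, lies between DSC2 and DSG1.

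DSC3 encodes a desmocollin of the basal layers, and its 5′ end had the most loops of the 5 genes, with a counting interval that overlapped those of the others. Its 5′ end, at 28622781, lies in an anchor (28622001 to 28624000) with 3 loops and a coverage of 24, where coverage is read as the total count of the first bin of a loop. Of all first bins in the list, 19.0% had a coverage as high. It had 4 loops within 1 kb (Poisson interval 1.09 to 10.2) and 5 within 5 kb. These loops went to both sides of the DSC2 5′ end over 62 and 56 kb. They also went over 156 kb to an anchor at 28778001, between the 5′ ends of DSC2 and DSG1. The longest went over 334 kb to an anchor at 28956001, between the starts of DSG1 and DSG3, and over 458 kb to the DSG2 5′ end. The loops of DSC3 thus reached across the whole gene cluster, each with 1 contact. The reach to DSG2 rests on 1 loop, from the bin at 28620001 beside that of the 5′ end.

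The far end of DSC3 was also an anchor site. A stretch of 4 kb (28566001 to 28570000) that ends 52 bases below the 3′ end of the gene had 5 loops, as many as the 5′ end. Of these, 3 went to the region between the 5′ ends of DSC2 and DSG1 and 2 to the DSG side, over 220 to 492 kb. None of its loops ended at DSC2 or at the DSC3 5′ end. Inside the 52.7 kb of DSC3 itself, the only anchors were 2 bins at the 5′ end.

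DSC2, a widespread desmocollin, had 2 loops within 1 kb of its 5′ end at 28682388 (Poisson interval 0.242 to 7.22) and 3 within 5 kb. The bin of the 5′ end itself was not an anchor, and the loops used the bins on either side, at 28680001 and 28684001. Of the 3 loops, 2 joined DSC3 and 1 went 130 kb to an anchor at 28810001. In the 36.4 kb of the gene, the bin at 28680001 was the only anchor, with a coverage of 12.

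DSG1, the desmoglein of differentiated layers, had 0 loops within 1, 5 and 10 kb of its 5′ end at 28898052. The nearest anchors were 40.1 kb below and 55.9 kb above it, and 8 loops passed over it. Contacts away from p63 may also be missing from the list. A count of 0 allows up to 3 contacts, which is as many as DSC2 or DSG2 had within 5 kb, so a difference from them was not detectable at this depth. The Poisson interval of 0 loops, 0 to 3.69, overlapped that of each other gene.

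DSG3, the desmoglein of basal layers, had 2 loops within 1 kb of its 5′ end at 29027732 (Poisson interval 0.242 to 7.22) and 4 within 5 kb (1.09 to 10.2). Its anchors, at 29028001 and 29030001, begin 0.269 and 2.27 kb past the 5′ end, and the first had a coverage of 10. The anchor at 29028001 had loops over 12 kb, to a site in the same direction, and over 62 kb, to a site 12 kb past the DSG2 start. The anchor at 29030001 had loops over 206 kb, to the most connected anchor of the cluster, and over 464 kb, to the 3′ end of DSC3.

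DSG2, the most widespread desmoglein, had 3 loops within 1 kb of its 5′ end at 29078027 (Poisson interval 0.619 to 8.77), and the count was the same within 5 and 10 kb. They spanned 18 kb to an anchor at 29060001, 270 kb to an anchor at 28806001, between the 5′ ends of DSC2 and DSG1, and 458 kb to the DSC3 5′ end. The coverage of these DSG2 bins is not given in the list, because they occur only as second bins.

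**Figure D2:**
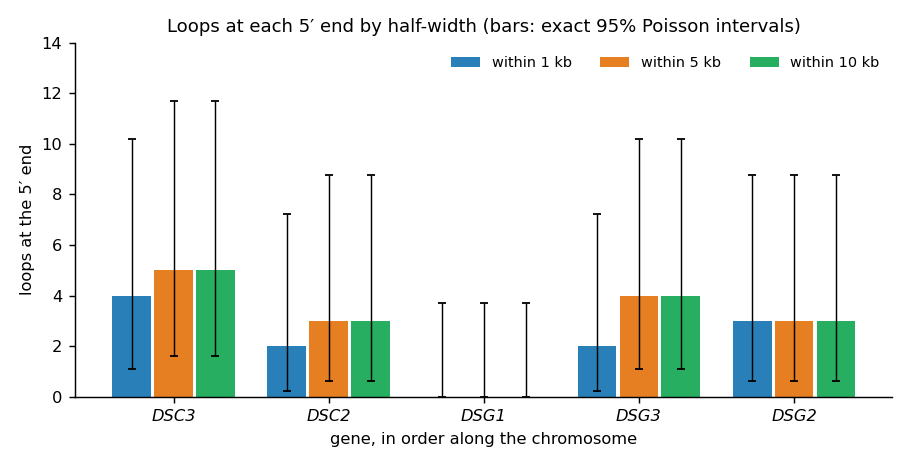
Number of loops (y axis) at the 5′ end of each gene (x axis), counted within 1, 5 and 10 kb, with exact 95% Poisson intervals as error bars. DSC3 had 4 to 5 loops, DSC2 and DSG3 2 to 4, DSG2 3 and DSG1 0, and all intervals overlap.

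In order of loops within 5 kb the genes ran DSC3 (5), DSG3 (4), DSC2 and DSG2 (3 each) and DSG1 (0). No neighbors in this order differed beyond their counting intervals. Within 1 kb, which covers 2 bins, DSC3 had 4 loops, DSG2 3 and DSC2 and DSG3 2 each. Over the 57530 windows of this width that hold a loop anywhere in the list, 15.3% had 4 or more loops, 26.2% had 3 or more and 48.9% had 2 or more.

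Of the 10 pairs of genes, 2 were joined at their 5′ ends within 5 kb. DSC3 and DSC2, whose 5′ ends lie 59.6 kb apart, were joined by 2 loops. DSC3 and DSG2, at 455 kb the pair farthest apart, were joined by 1. When the 5′ ends were taken within 1 kb, the DSC3 to DSG2 loop was the only one left, and within 10 kb the count was again 3. DSG3 and DSG2 are the closest pair, at 50.3 kb, and had 0 loops between their 5′ ends. All of these loops rest on single contacts.

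The region between the 5′ ends of DSC2 and DSG1 (216 kb), in which the RefSeq order places DSC1, held 10 anchors farther than 5 kb from a member, from 28736001 to 28858000. They took part in 12 of the 22 loops. Of these, 4 joined the anchors of the region to each other and 8 left it. The loops that left went once each to DSC3, DSC2, DSG3 and DSG2 within 5 kb of the 5′ end, 0 times to DSG1, 3 times to the 3′ end of DSC3 and once to the site between DSG1 and DSG3. Loops thus joined the region to genes on both sides, and none was listed to DSG1, the member nearest to 7 of its 10 anchors. Each link to a 5′ end was 1 loop of 1 contact. A count of 0 has a Poisson interval of 0 to 3.69, so 0 loops to DSG1 cannot be told from 1.

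The most connected anchor of the cluster lay in this region (28824001 to 28826000), 72.1 kb before the 5′ end of DSG1. It had 5 loops and a coverage of 25, the highest of the 12 first bins in the window, the only anchors there with a coverage given. Of all anchors in the list, 5.12% had as many loops. Its 4 short loops, over 12 to 32 kb, stayed within the region, and its long loop reached DSG3. A stretch of 3 touching anchors beside it (28806001 to 28812000) also had 5 loops and was joined to DSC2, to DSG2, to the 3′ end of DSC3 and to the most connected anchor. Anchors with 3 loops were the bins at 28566001 and 28806001 and the 5′ end of DSC3. Whether any of these anchors lies in DSC1 was not determined.

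Loops between the DSC side and the DSG side of the cluster numbered 4 and spanned 334 to 492 kb. A further 2 anchors, at 28954001 and 28956001, lie between the starts of DSG1 and DSG3, where the RefSeq order has DSG4. They had 1 loop each, 1 to the DSC3 5′ end and 1 to the anchor at 28736001.

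The cluster was set apart along the chromosome. The nearest anchors outside the window were 3004 kb below its lowest anchor (25560001 to 25562000) and 3986 kb above its highest (33078001 to 33080000), each with 1 loop of 1 contact. Only 1 loop left the window. It joined the anchor at 29064001, 12 kb before the DSG2 5′ end, to a bin at 24132001, over 4932 kb, and it was the only loop of that distant bin. Stretches bounded on both sides by at least 3 Mb without anchors numbered 134 in the list, a grouping chosen after the gaps were seen. They had a median of 29.5 loops, and 73 had more loops than the cadherin cluster. Of the 134, 23 were no longer than the cadherin cluster, with a median of 2 loops. Of the other 22, 1 had more loops than the cluster, with 28. With gaps of at least 1 Mb, 2 of the other 143 stretches no longer than the cluster had as many loops as the cluster or more.

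The window as a whole was moderately rich in loops. Among 18462 windows of 700 kb with at least 1 loop, taken in steps of 100 kb, 21.1% had as many loops, and the median was 7. On chromosome 18, 13.0% of 331 such windows had as many, with a median of 4. The cluster made up 6.16% of the 357 loops of chromosome 18. Windows are not replicates, and those in steps overlap. Among windows that do not overlap, 20.9% of 2634 had as many loops.

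**Figure D3:**
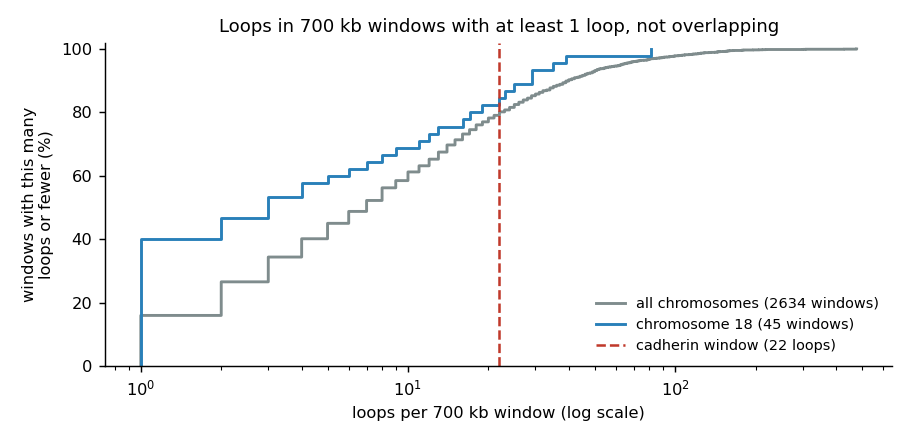
Cumulative share of 700 kb windows that do not overlap (y axis, %) by their number of loops (x axis, log scale), for all chromosomes and for chromosome 18. The dashed line marks the cadherin window at 22 loops, which lies in the upper part of both curves and far below the maximum of 478.

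The loops of the cluster had a median span of 181 kb (interquartile range 38 to 262 kb), against 96 kb (29 to 293 kb) for the other 335 loops of chromosome 18 and 120 kb (36 to 398 kb) for all other loops of the list. The interval of the cluster median from its order statistics, 32 to 270 kb, included both. Spans of 200 to 1000 kb made up 45.5% of the loops (Wilson interval 26.9 to 65.3%), against 26.0% (21.6 to 30.9%) on the rest of chromosome 18 and 27.6% (27.1 to 28.1%) in the rest of the list, and the intervals overlapped. Of the 22 loops, 15 passed over at least 1 member 5′ end and 4 passed over 4 of them, among these the loop that left the window. These counts include 5′ ends that lie between the ends of a loop but close to 1 of its anchors. That of DSC3, just beyond an anchor of its loop to DSG2, is an example. They were not set beside counts for other loops of like span.

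**Figure D4:**
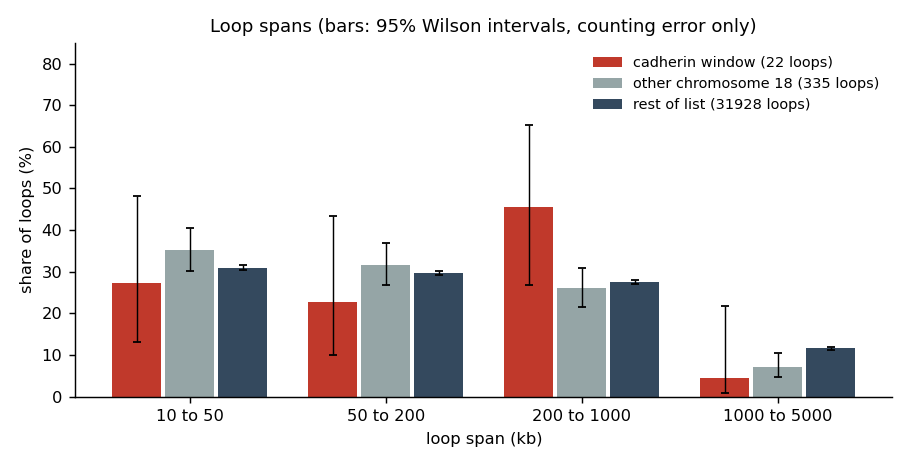
Share of loops (y axis, %) in 4 classes of span (x axis, kb) for the cadherin window, the other loops of chromosome 18 and the rest of the list, with 95% Wilson intervals. The bar of the cadherin window is highest at 200 to 1000 kb, and its intervals overlap those of the others in every class.

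No loop of the cluster had more than 1 contact. In the whole list, 3.36% of loops had 2 or more contacts, and 0 of 22 has a Wilson interval of 0 to 14.9%, so the count of the cluster is within what this background gives. A count of 1 has a Poisson interval of 0.0253 to 5.57 contacts, and no loop described here can be ranked above another by its contacts. The coverage of the 12 first bins in the window had a median of 9 (range 2 to 25), next to 8 for the other first bins of chromosome 18 and 12 for the rest of the list. The interval of the cluster median, 5 to 12, included both.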

How the data were processed

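H3K27ac HiChIP of KYSE180 cells was done in 2 libraries of 1 condition. HiC-Pro and then FitHiChIP, in its Peak-To-All mode, were run by the authors to find active loops associated with p63, by a step that the sources used here do not describe. They left out loops with an end without H3K27ac and put both libraries in 1 list. Versions and thresholds are not given in the sources used here. The build is hg19 per the labels, and on 13 of 25 chromosomes the list runs past the hg38 end. The deposited list holds 2 columns of counts without normalization and without a header, read as contacts per loop and coverage of the first bin. Contacts summed to more than the coverage in 0 of the 21636 first bins, and coverage had 1 value per first bin.

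The gene positions on hg19 came with the definition of the cluster. The spacing of neighboring 5′ ends differed from RefSeq on GRCh38 by at most 141 bases, and no position was converted. A loop was counted at a gene where a bin overlapped 1 kb on either side of the 5′ end, or 5 kb for pairs. The text names the 5 genes whatever their values, the anchors with the most loops and the loops that join the genes. The genes, motifs and window were chosen with earlier results of these data known. Counts of loops per window were tested on simulated loops. The motif search was checked on short sequences with planted motifs, and the networkx functions used for groups on a small made-up network. Other widths, windows, minimum spans and contacts were tried as alternatives. The software was networkx 3.6.1, scipy 1.17.1, matplotlib 3.10.9, pandas 2.3.3 and numpy 2.4.6 under Python 3.11.15.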

Additional observations from a re-analysis of the deposited data

How the results depend on the processing

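The 16 results were recomputed 55 times, of which 38 gave a like value (a count within 1.5 times, or a value within its counting interval), 16 moved and 1 reversed. Some of the 38 could not have come out otherwise. Since every loop has 1 contact, the share with 2 or more contacts was 0 in every span class, and counting contacts in place of loops changed nothing. Stricter counts at DSG1, with 0 loops to begin with, could only give 0. With at least 2 contacts, 0 loops were left at the cluster, 0 at the 5′ ends of its genes, 0 between genes and 0 leaving the window, since every loop has 1 contact. With only the bin that holds the 5′ end, 5 loops in place of 10 touched a gene. With 5′ ends taken within 1 kb, 1 loop in place of 3 joined genes to each other. The direction that reversed was that of the median coverage, which was 0.750 times that of all other first bins and 1.12 times that of the other first bins of chromosome 18. The interval of the cluster median included both of these medians. With single bins in place of touching ones, an alternative chosen after seeing the data, the largest connected group held 13 loops in place of 21. At single genes, DSG3 had 4 loops within 5 or 10 kb, 0 in the bin of its 5′ end and 1 at spans of 20 kb or more, in place of 2, and DSC2 had 0 in place of 2 in the bin of its 5′ end. Except where stated, the cause was not tested. No paired analysis was possible because the list does not separate the 2 libraries, and so neither library could be left out in turn. With 22 contacts in all, the counting intervals of the genes overlap, and their order by loops is not settled at this depth.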

Other observations

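Some single-contact loops of the cluster ran side by side. Of the 22 loops, 6 (27.3%, Wilson interval 13.2 to 48.2%) had another loop of the cluster with both ends within 4 kb. The share was 26.6% (22.1 to 31.5%) among the other loops of chromosome 18 and 19.9% (19.5 to 20.4%) in the rest of the list, and the interval of the cluster overlapped both. The loops of the cluster were the loops between DSC3 and DSC2, those from the 3′ end of DSC3 to the anchor at 28806001, and those from the anchor at 28824001 to the anchors at 28836001 and 28838001.

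The contacts of the listed loops made up 16.7% (21 of 126, Wilson interval 11.2 to 24.1%) of the coverage of the first bins in the window. The share was 13.0% (11.8 to 14.3%) for the other first bins of chromosome 18 and 9.14% (9.05 to 9.24%) for the whole list. A first bin has at least 1 listed contact, so this share is higher where coverage is low, and the coverage of chromosome 18 was lower than that of the list as given above. The part of coverage in the difference was not tested.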
